A study of Mus musculus with 11 samples.

Results

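The enzymes described here attach glutathione, a glycosyl group such as glucuronic acid, or sulfate to other molecules, and they were measured by RNA-seq in mouse kidney. Members were all genes whose symbol matched the pattern for cytosolic glutathione S-transferases of the alpha, kappa, mu, omega, pi and theta classes (Gst), microsomal glutathione S-transferases (Mgst), UDP-glycosyltransferases (Ugt) or sulfotransferases (Sult), with at least 50 counts over the 11 libraries. Of the 25677 genes listed, 55 symbols matched and 45 passed this limit, namely 23 Gst and Mgst genes, 15 Ugt genes and 7 Sult genes. Ugt1a9, with 56 counts, lay just inside the limit and Sult2a3, with 25 counts, just outside it. The kidneys were from 3 untreated female C57BL/6J mice (Ctr), 4 untreated female MRL/lpr mice (Lpr) and 4 female MRL/lpr mice that received DNase I by intraperitoneal injection each day from week 17 (DNase), with tissue collected at 21 weeks. The MRL/lpr strain, which has the lpr mutation in Fas, is a model of lupus nephritis, and the injected enzyme degrades extracellular DNA. Because the Ctr mice are of another strain and are healthy, strain and disease cannot be told apart in any difference from Ctr.

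Glutathione S-transferases couple the thiol of glutathione to electrophiles, including products of lipid peroxidation, and the conjugates are later trimmed to mercapturic acids, to a large part in the brush border of the proximal tubule. UDP-glycosyltransferases use sugar nucleotides, mostly UDP-glucuronic acid, and sulfotransferases use the sulfate donor PAPS, and both make lipophilic compounds such as steroids, phenols and drugs more soluble. Many of these genes stand in clusters of close relatives, and the Ugt1a genes share their last exons while each has its own first exon.

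The sequences of 5 promoters are given because their genes carried the differences described below: neighbouring Gstm genes that were both higher in DNase than in Ctr, a pair of Ugt2b genes of one cluster that differed from Ctr in opposite directions, and Ugt3a1, which was lower than in Ctr in both groups of MRL/lpr mice. Each line holds the 250 bases before a transcription start in RefSeq (GRCm38.p6, the C57BL/6J reference), 5′ to 3′ on the strand of the gene, and capitals mark matches to the motifs named after them. The windows lie at chr3:107931818-107932067 (Gstm7, minus strand), chr3:107943735-107943984 (Gstm6, minus strand), chr5:87254789-87255038 (Ugt2b37, minus strand), chr5:87424204-87424453 (Ugt2b38, minus strand) and chr15:9279579-9279828 (Ugt3a1, plus strand). The window of Ugt3a1 lies inside the gene as GENCODE draws it, 2941 bases from that start. RefSeq has further starts for Gstm6 and Gstm7, whose windows are not shown, and that of Gstm7 at chr3:107931615-107931864 holds an antioxidant response element.
Gstm7: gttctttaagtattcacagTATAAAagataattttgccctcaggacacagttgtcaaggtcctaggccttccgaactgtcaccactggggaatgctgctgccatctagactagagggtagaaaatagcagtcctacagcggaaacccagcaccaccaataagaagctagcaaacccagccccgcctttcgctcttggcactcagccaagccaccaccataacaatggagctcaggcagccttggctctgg
Gstm6: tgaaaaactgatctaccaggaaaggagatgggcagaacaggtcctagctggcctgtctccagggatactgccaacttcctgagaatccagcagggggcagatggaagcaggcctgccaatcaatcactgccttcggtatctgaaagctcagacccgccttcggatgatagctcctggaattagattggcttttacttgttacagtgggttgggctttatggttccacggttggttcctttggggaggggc
Ugt2b37: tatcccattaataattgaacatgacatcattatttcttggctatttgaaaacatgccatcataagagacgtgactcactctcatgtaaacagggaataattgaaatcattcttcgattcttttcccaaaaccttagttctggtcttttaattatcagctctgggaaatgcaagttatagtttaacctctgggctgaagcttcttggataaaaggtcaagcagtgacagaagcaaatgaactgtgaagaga
Ugt2b38: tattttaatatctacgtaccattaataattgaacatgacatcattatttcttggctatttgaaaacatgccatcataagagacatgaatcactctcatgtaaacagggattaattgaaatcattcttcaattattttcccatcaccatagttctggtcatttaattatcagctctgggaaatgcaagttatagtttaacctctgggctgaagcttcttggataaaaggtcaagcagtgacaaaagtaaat
Ugt3a1: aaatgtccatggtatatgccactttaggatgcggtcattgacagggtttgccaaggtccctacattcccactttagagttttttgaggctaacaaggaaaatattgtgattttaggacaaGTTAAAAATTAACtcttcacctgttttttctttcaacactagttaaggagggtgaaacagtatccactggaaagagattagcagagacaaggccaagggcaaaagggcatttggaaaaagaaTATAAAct
The Ugt2b37 and Ugt2b38 windows were identical at 225 of 264 aligned positions (85.2%). RefSeq promoters were matched to 40 of the 45 members, with 50 windows in all, and 4 motifs were searched on both strands. The antioxidant response element TGACNNNGC was found in 8.00% of the member windows and in 10.2% of all 32851 promoters of the same length, and the core of the xenobiotic response element GCGTG in 22.0% and 28.2%. The TATA box letters TATAAA were found in 10.0% of the member windows and 12.4% of all promoters. They are in the Gstm7 and Ugt3a1 sequences above. The HNF1-type motif, GTTAAT and TTAAC with any 2 bases between them, was found in 0.0335% of all promoters and in 1 member window, that of Ugt3a1, on the strand opposite to the gene. No motif was found in the Gstm6, Ugt2b37 and Ugt2b38 sequences, and a match or its absence describes these letters only.

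Libraries held between 33469858 and 38460873 counts. In Lpr replicate 3 the counts depended on gene length, with a slope of -0.393 log2 units for each doubling of length, while the slopes of the other 10 libraries lay between -0.0433 and 0.0775. Where leaving out this kidney changed a call, or moved a printed difference by over 1.5 times, the value without it is given. In the text below, CPM is the count scaled to the library total, FPKM is scaled to the length of the gene as well, and a log2 fold change is from edgeR's quasi-likelihood test and is followed by its standard error (SE). A gene is called when its p, adjusted by Benjamini and Hochberg over all genes tested, is under 0.05. In tissue RNA, fewer cells of a type and less RNA per cell cannot be told apart. Where the annotation has near-identical copies, the counts of a member may hold reads of its relatives: over 20% of the 100-base windows of 13 members also occur in another gene, and 23 members have no such window.

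Expression was spread unevenly over the families. Gstm1, of the mu class, held 14.2% of the summed FPKM of all members over the 11 kidneys and Ugt3a2 held 13.4%. In Ctr, Gstm1 had 470 ± 41.9 FPKM (SD, n = 3), Gsta2 503 ± 64.0 and Ugt3a2 475 ± 66.6. The summed FPKM of the 45 members lay between 3139 and 3528 in Ctr, between 2624 and 3249 in Lpr and between 3066 and 3410 in DNase, so the ranges overlapped. Without Lpr replicate 3, which had 3249, the Lpr sums lay between 2624 and 2942, below all Ctr and DNase kidneys. The sums of the families were not tested and are given as a description.

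The 4 alpha class genes (Gsta) summed to between 629 and 857 FPKM in Ctr and between 382 and 480 FPKM in DNase. In Lpr they summed to 184 to 365 FPKM in 3 kidneys, below all DNase kidneys, and to 551 FPKM in replicate 3. Every MRL/lpr kidney thus lay below every Ctr kidney. The opposite order was seen in the 4 Sult1 genes, with 228 to 284 FPKM in Ctr, 330 to 409 in Lpr and 358 to 397 in DNase. The 3 theta class genes (Gstt) had 223 to 275 FPKM in Ctr, 289 to 317 in Lpr and 330 to 422 in DNase, so that the FPKM sums of the 3 groups did not overlap. Summed as CPM, Gstt had 369 ± 41.7 (SD, n = 3) in Ctr and 434 ± 27.9 (SD, n = 4) in Lpr, and these 2 groups overlapped. How often the sums of other sets of genes stay apart between groups was not counted. Taken singly, each of the 3 Gstt genes overlapped between DNase and Lpr and was not called there. The 7 mu class genes (Gstm) overlapped in all groups, with 642 to 791 FPKM in Ctr and 681 to 876 in DNase. In Lpr they had 546 to 695 FPKM in 3 kidneys and 854 in replicate 3. The ranges of the pi class (Gstp), the omega class (Gsto), Gstk1 and Ugt2 overlapped between all pairs of groups as well. Without Lpr replicate 3, the Lpr kidneys lay below Ctr and DNase in Gstp and in Gstk1. Gstp then had 81.6 to 99.4 FPKM in Lpr, against 102 to 156 in Ctr and 105 to 127 in DNase. Gstk1 had 42.7 to 58.8 FPKM in Lpr, against 64.4 to 88.4 in Ctr and 62.6 to 89.5 in DNase. The 7 Ugt1 genes had 207 to 238 FPKM in Ctr, 163 to 194 in 3 Lpr kidneys, 40.5 in Lpr replicate 3 and 165 to 234 in DNase.

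**Figure D1:**
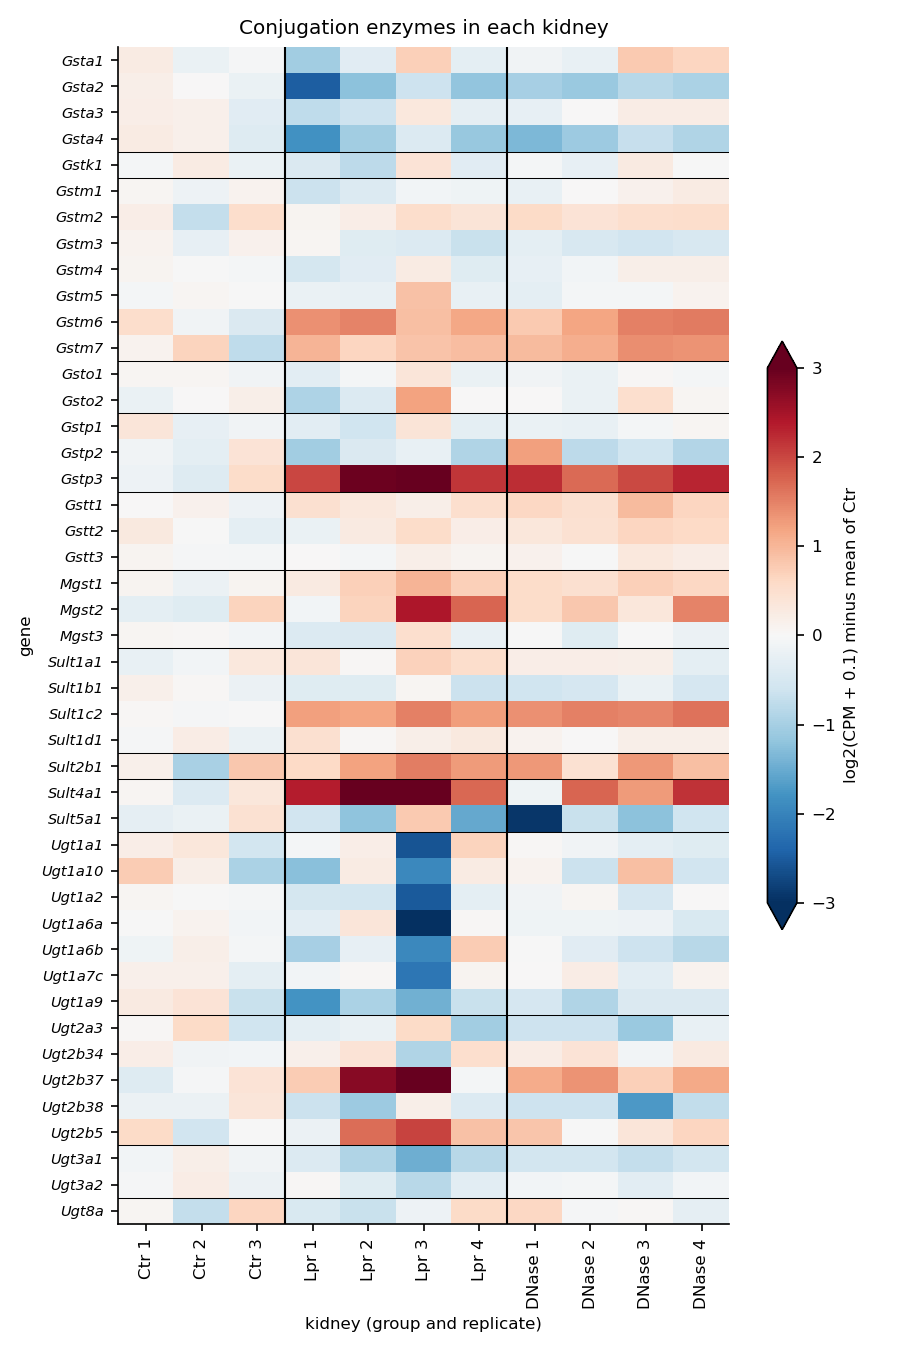
Heat map of the 45 members (rows, by family) in the 11 kidneys (columns). Colour gives log2(CPM + 0.1) minus the mean of the 3 Ctr kidneys, limited to 3 in each direction. All Ugt1a genes but Ugt1a9 are lowest in Lpr replicate 3, Sult1c2 and Gstm6 are red in all 8 MRL/lpr kidneys and Gsta2 is blue in all 8.

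Of the 45 members, 43 passed the filter on low counts in each comparison, and Ugt1a9 and Ugt2a3 did not. Between Lpr and Ctr, 4 members (9.30%) were higher in Lpr, namely Sult1c2, Gstm6, Gstp3 and Sult4a1, and 1 (2.33%) was lower, Ugt3a1. Of all genes, 7.27% were higher and 2.92% lower. These 5 are 11.6% of the members tested, where 10.2% of all 16074 genes tested were called, so the share is near that of all genes. At an unadjusted p under 0.05, 10 of 43 members differed, where 21.4% of all genes did. With a further limit of 2 on the absolute log2 fold change, Gstp3 and Sult4a1 were left, where 5.78% of all genes were. Both had too few counts in Ctr to pass the filter on low counts there, so they were tested only because of their level in the MRL/lpr kidneys. The median log2 fold change was -0.14 over the members and 0.03 over all genes. Without Lpr replicate 3, 5 members were higher (11.6%, against 11.0% of all genes) and 8 lower, in all 30.2%, where 17.8% of all 15855 genes tested were called. In that fit the members' median was -0.25 and that of all genes 0.00. The 8 lower members were Gsta2, Gsta4, Gstm4, Gstm5, Mgst3, Ugt1a2, Ugt2b38 and Ugt3a1, or 18.6% of the members where 6.79% of all genes were lower. The count of lower members was 0 without Ctr replicate 1, 2 or 3. Of all genes, 211, 258 and 262 were then lower, against 470 with all kidneys. It was also 0 without Lpr replicate 2 or 4, where 317 and 389 of all genes were lower. The count of higher members was 2 without Ctr replicate 1 and 2 without Ctr replicate 2. Of all genes, 641 and 653 were then higher, against 1169 with all kidneys.

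Between DNase and Ctr, 7 members (16.3%) were higher, namely Sult1c2, Mgst1, Gstp3, Gstt1, Gstm6, Gstm7 and Ugt2b37, and 4 (9.30%) were lower, namely Gsta2, Gsta4, Ugt3a1 and Ugt2b38. Of all genes, 13.1% were higher and 8.61% lower. These 11 are 25.6% of the members tested, and 21.7% of all 16100 genes tested were called. At an unadjusted p under 0.05, 16 of 43 members differed, where 33.5% of all genes did. With the further limit of 2 on the absolute log2 fold change, Gstp3 was left, again tested only because of its level in MRL/lpr kidneys, where 6.01% of all genes were. The median log2 fold change was -0.07 over the members and 0.00 over all genes. Without DNase replicate 4, the count of higher members was 4 of 42 (9.52%). Of all 15950 genes then tested, 1703 were higher, against 2107 of 16100 with all kidneys. This comparison uses the same Ctr kidneys as the one between Lpr and Ctr, so the values of the members are given side by side below. Between DNase and Lpr, 0 members were called by edgeR and 0 by DESeq2. Over all genes, edgeR called 0% of all 15832 genes tested, and DESeq2 called 12 higher and 7 lower of 24885. At an unadjusted p under 0.05, 1 of 43 members differed (Sult4a1), where 5.60% of all genes did. No member had DNase and Lpr kidneys without overlap, and the share of all genes without overlap was not counted. Without Lpr replicate 3, 10 of 43 members had an unadjusted p under 0.05 between DNase and Lpr, where 10.1% of all genes had, and 0 members were called.

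**Figure D2:**
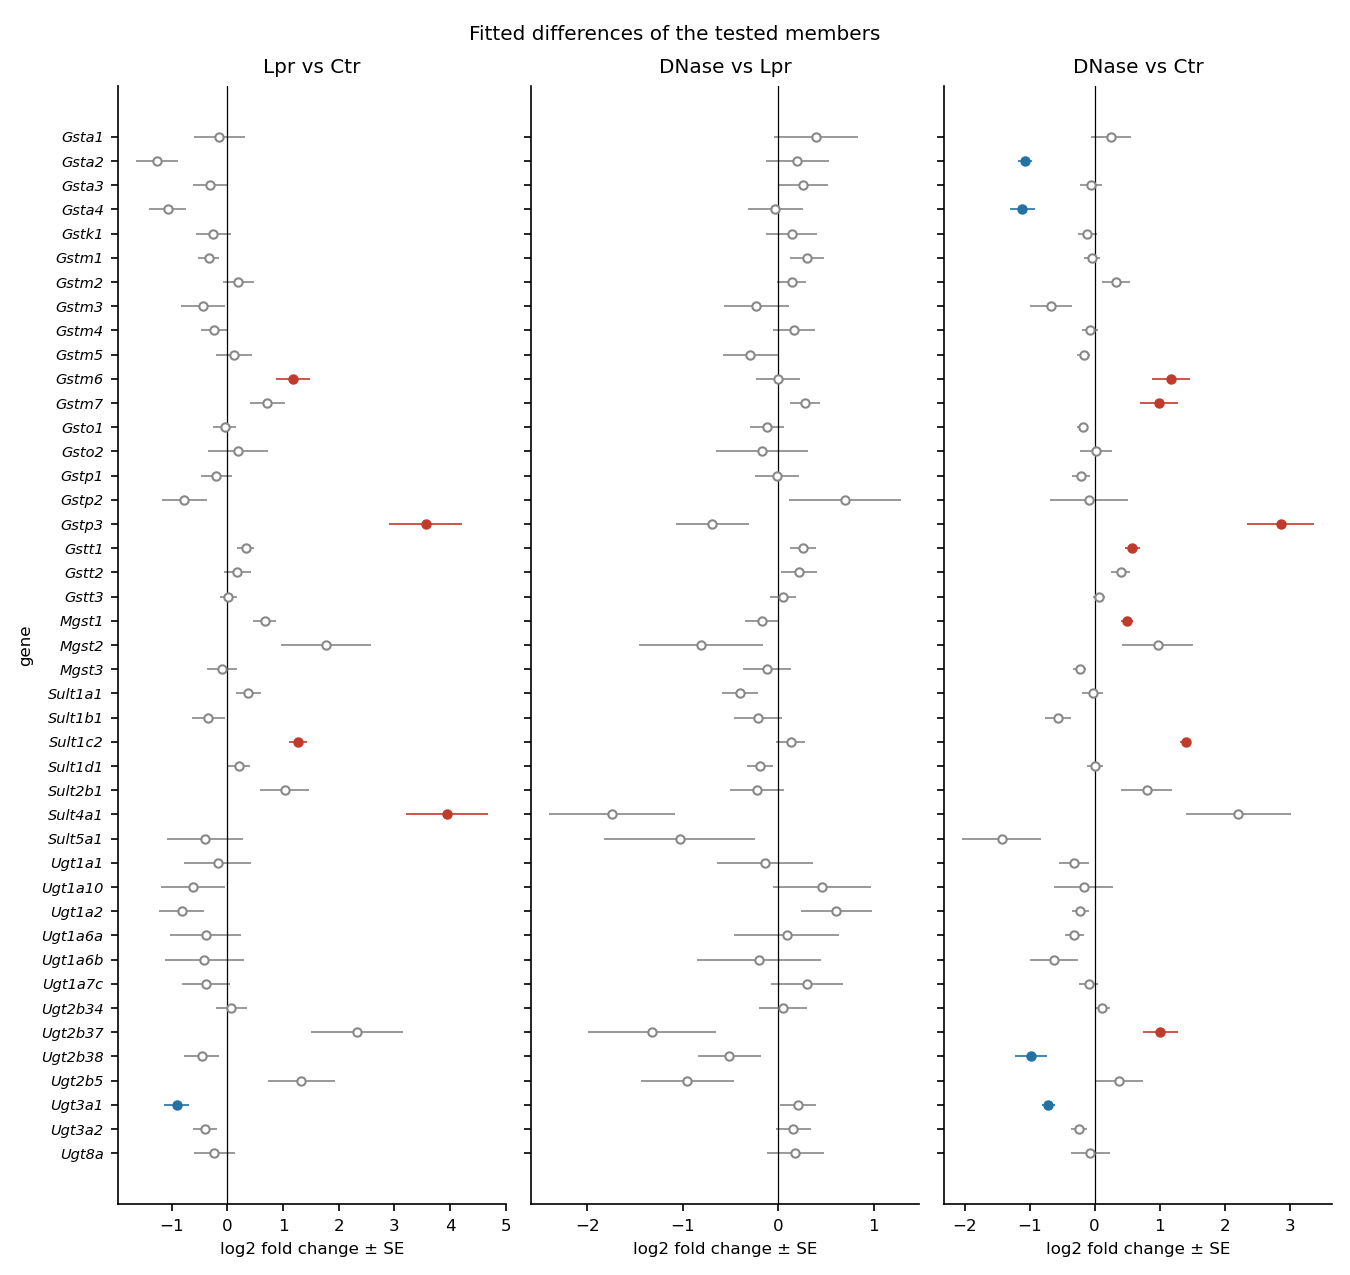
Log2 fold change of the 43 tested members with its SE (horizontal bars) in the 3 comparisons, from edgeR. Filled red points were called higher and filled blue points lower, and open grey points were not called; there are 5 filled points for Lpr against Ctr, 0 for DNase against Lpr and 11 for DNase against Ctr.

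Among the sulfotransferases, Sult1c2 was the member with the smallest p in both comparisons with Ctr. Sult1c2 transfers sulfate to phenolic compounds and lies at chr17:53829637-53846339 (minus strand, mm10). Its level was 86.7, 82.1 and 83.4 CPM in the 3 Ctr kidneys, 198, 190, 239 and 202 CPM in the 4 Lpr kidneys and 216, 238, 231 and 261 CPM in the 4 DNase kidneys. The lowest MRL/lpr kidney was far above the highest Ctr kidney, and Lpr and DNase overlapped. The level was 2.41-fold higher in Lpr (log2 fold change 1.27, SE 0.17, adjusted p = 0.00223 from edgeR) and 2.64-fold higher in DNase (log2 fold change 1.40, SE 0.090, adjusted p = 1.14e-05). Over the alternatives the adjusted p stayed at 0.0216 or below in the first comparison and at 0.00156 or below in the second. Per length, Sult1c2 held 36.8% of the Sult1 sum and Sult1d1, which acts on catecholamines, held 61.7%. Sult1d1 had 192 ± 29.6 FPKM (SD, n = 3) in Ctr, 228 ± 30.6 in Lpr and 207 ± 11.2 in DNase (SD, n = 4 in each) and was not called.

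Sult4a1, which is known from brain and for which no substrate is established, was near the limit of detection. It had 0.0787, 0.0299 and 0.118 CPM in Ctr, or 3, 1 and 4 counts. The Lpr kidneys had 0.780, 1.67, 2.00 and 0.469 CPM and the DNase kidneys 0.0575, 0.480, 0.314 and 0.676 CPM. All Lpr kidneys were above Ctr, whereas 1 DNase kidney lay within the Ctr range. Sult4a1 was higher in Lpr than in Ctr (log2 fold change 3.95, SE 0.74, adjusted p = 0.0109 from edgeR). Its adjusted p lay between 1.11e-05 and 0.0594 over the alternatives and was over the threshold without Ctr replicate 1 (0.0594) and without Ctr replicate 2 (0.0550). In DNase against Ctr it was not called (log2 fold change 2.21, SE 0.81, adjusted p = 0.0878 from edgeR), but it was without DNase replicate 1 (adjusted p = 0.0150, with a range of 0.0150 to 0.346 over the alternatives). Between DNase and Lpr its log2 fold change was -1.74 (SE 0.66, unadjusted p = 0.0261 and adjusted p = 0.850 from edgeR). Sult2b1, which sulfates cholesterol, and Sult5a1 were present at 1.08 ± 0.626 and 0.567 ± 0.187 FPKM (SD, n = 3) in Ctr and were not called in any comparison.

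In the mu class, Gstm6 and its neighbour Gstm7 stood apart from the abundant members. The 7 Gstm genes lie in one cluster on chromosome 3 in the order Gstm5, Gstm7, Gstm6, Gstm3, Gstm2, Gstm1 and Gstm4, with Gstm7 at 107926334 to 107931817 and Gstm6 at 107938847 to 107943749 on the minus strand. Gstm6 had 3.44, 2.18 and 1.71 CPM in Ctr, 6.19, 6.75, 4.47 and 5.39 CPM in Lpr and 4.08, 5.45, 6.83 and 7.15 CPM in DNase. All MRL/lpr kidneys were above all Ctr kidneys. The log2 fold change was 1.18 in Lpr (SE 0.30, adjusted p = 0.0433 from edgeR) and 1.17 in DNase (SE 0.29, adjusted p = 0.0192). The call in Lpr was lost with the gene length offset (adjusted p = 0.0622), with no filter on low counts (0.0510), without Ctr replicate 2 or 3 (0.158 and 0.161) and without Lpr replicate 1, 2 or 4 (0.0995, 0.104 and 0.0716), within a range of 0.00218 to 0.161 over the alternatives. The call in DNase was lost without Ctr replicate 2 or 3 (0.0521 and 0.0609) and without DNase replicate 4 (0.0549), within a range of 0.000631 to 0.139.

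Gstm7 had 10.5, 15.6 and 5.72 CPM in Ctr, 20.1, 15.4, 17.8 and 18.7 CPM in Lpr and 18.9, 20.9, 25.9 and 24.9 CPM in DNase. The DNase kidneys were all above Ctr, and 1 Lpr kidney was below the highest Ctr kidney. Gstm7 was higher in DNase than in Ctr (log2 fold change 0.99, SE 0.29, adjusted p = 0.0401 from edgeR) and not called in Lpr (log2 fold change 0.72, SE 0.32, adjusted p = 0.245). Whether these differences differ from each other is the comparison of DNase with Lpr, in which the log2 fold change was 0.28 (SE 0.16, adjusted p = 0.854 from edgeR). The call in DNase was lost in the robust fit (adjusted p = 0.0645), without Ctr replicate 1 or 3 (0.124 and 0.0557) and without DNase replicate 2, 3 or 4 (0.0693, 0.0878 and 0.0951), within a range of 0.00358 to 0.127. The most abundant genes of the cluster, Gstm1 and Gstm5, were not called in any comparison: Gstm1 had 470 ± 41.9 FPKM (SD, n = 3) in Ctr, 380 ± 66.9 in Lpr and 486 ± 67.8 in DNase (SD, n = 4 in each). Gstm5 had 104, 102, 219 and 103 CPM in Lpr, between 115 and 125 in Ctr and between 98.3 and 128 in DNase, so that Lpr replicate 3 alone was high. Its log2 fold change in Lpr was 0.12 (SE 0.32, adjusted p = 0.864 from edgeR) with all kidneys and turned to -0.29 (adjusted p = 0.0495) without Lpr replicate 3 and to -0.19 (adjusted p = 0.427) with the gene length offset, within a range of 0.0495 to 0.950. Gstm4 had a log2 fold change of -0.24 (SE 0.23, adjusted p = 0.621 from edgeR) in Lpr with all kidneys and -0.48 (adjusted p = 0.0227, with a range of 0.0227 to 0.825) without Lpr replicate 3.

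**Figure D3:**
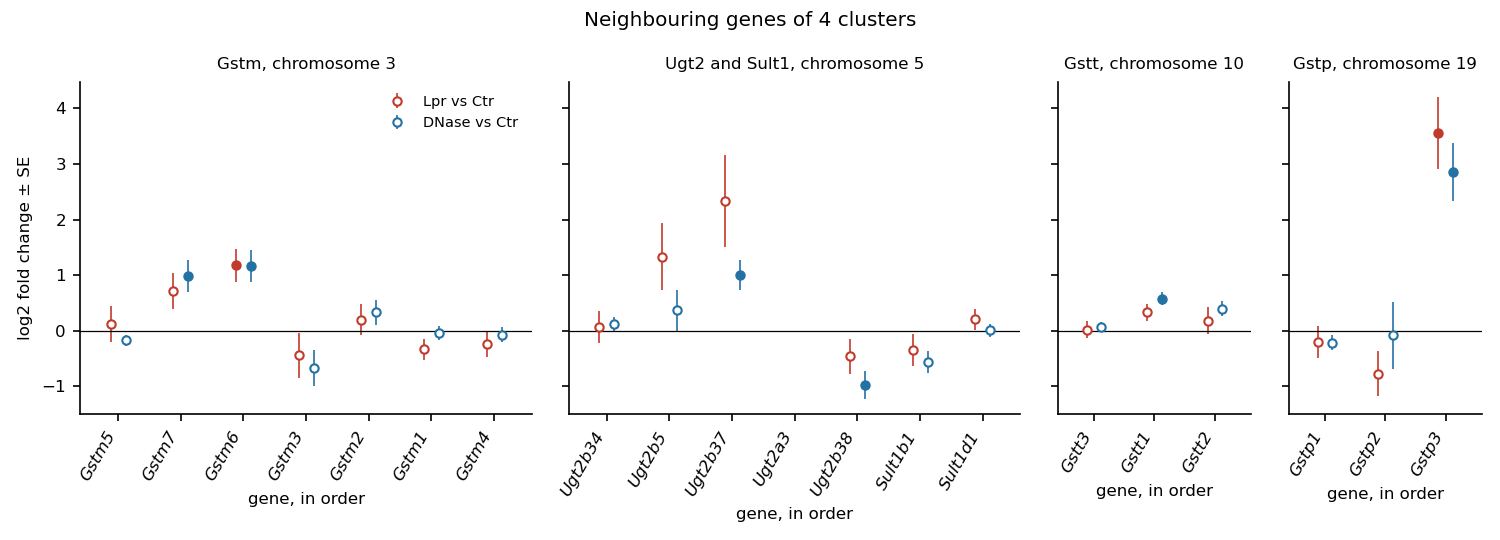
Log2 fold change against Ctr with its SE (vertical bars) of neighbouring members in 4 gene clusters, drawn in their order on the chromosome without distances; red points are Lpr and blue points DNase, and filled points were called. Gstm6 and Gstm7 hold the filled points of the Gstm cluster, Ugt2b37 and Ugt2b38 are on opposite sides of 0, and Ugt2a3 was not tested.

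Per length, the alpha class held the most abundant lower members, with a Ctr mean of 503 FPKM for Gsta2 and 175 FPKM for Gsta4. Gsta2 had 574, 514 and 444 CPM in Ctr, 91.8, 217, 330 and 225 CPM in Lpr and 254, 233, 286 and 265 CPM in DNase, and every MRL/lpr kidney was below every Ctr kidney. Between DNase and Ctr it was 2.10-fold lower (log2 fold change -1.07, SE 0.11, adjusted p = 0.000149 from edgeR). Between Lpr and Ctr the log2 fold change was -1.26 (SE 0.38, adjusted p = 0.0746 from edgeR), which missed the threshold. Without Lpr replicate 3 it was -1.60 (adjusted p = 0.0116), and it passed with DESeq2 (0.0126), with the gene length offset (0.00926), with all groups in one fit (0.0183) and with no filter (0.0493), within a range of 0.00926 to 0.227 over the alternatives. With all groups in one fit the adjusted p of DNase against Ctr was 0.0505, the highest over its alternatives, of which the lowest was 3.08e-17. Of the 100-base windows of Gsta2, 28.4% also occur in Gsta1 or in predicted genes near it. Gsta1 itself had 2.35 ± 0.388 FPKM (SD, n = 3) in Ctr, against 503 ± 64.0 for Gsta2. However, 80.6% of the Gsta1 windows also occur in Gsta2 or predicted genes, and how reads with several matches were counted is not given. The part of such reads in the counts of Gsta2 was not tested.

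Gsta4, which conjugates 4-hydroxynonenal, an aldehyde formed from oxidized lipids, has no window in common with another gene. It had 195, 183 and 126 CPM in Ctr, 47.0, 79.5, 124 and 75.6 CPM in Lpr and 65.0, 78.0, 103 and 87.8 CPM in DNase. The highest Lpr kidney, replicate 3, was just below the lowest Ctr kidney, and the DNase kidneys were clear of Ctr. Gsta4 was 2.15-fold lower in DNase (log2 fold change -1.11, SE 0.19, adjusted p = 0.00255 from edgeR), and this adjusted p stayed at 0.0383 or below over the alternatives. In Lpr the log2 fold change was -1.07 (SE 0.33, adjusted p = 0.0857 from edgeR) and without Lpr replicate 3 -1.40 (adjusted p = 0.00626), within a range of 0.00474 to 0.272. It passed with DESeq2 (0.0242), with all groups in one fit (0.0299) and with the gene length offset (0.00474). Gsta3, on chromosome 1, had 94.8 to 138 CPM in Ctr, 71.2 to 151 in Lpr and 102 to 142 in DNase and was not called.

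In the pi class, Gstp1 made up 98.7% of the summed FPKM and was not called in any comparison, with 122 ± 28.3 FPKM (SD, n = 3) in Ctr, 108 ± 34.1 in Lpr and 113 ± 10.3 in DNase (SD, n = 4 in each). Gstp3, of the same cluster, at chr19:4057477-4059569 (minus strand, mm10), was rare. It had 0.0525, 0.0299 and 0.147 CPM in Ctr, or 2, 1 and 5 counts, then 0.585, 1.21, 1.36 and 0.645 CPM in Lpr and 0.690, 0.452, 0.575 and 0.728 CPM in DNase. All 8 MRL/lpr kidneys lay above Ctr. The log2 fold change was 3.56 in Lpr (SE 0.65, adjusted p = 0.00963 from edgeR) and 2.86 in DNase (SE 0.52, adjusted p = 0.00393). Without Ctr replicate 1 the adjusted p in Lpr was 0.0613, the highest of a range from 2.72e-05, and in DNase it stayed at 0.0383 or below. Gstp2 had 0.424, 0.497 and 0.390 CPM in 3 DNase kidneys and 2.01 CPM in DNase replicate 1, and 46.9% of its windows occur in Gstp1 or a pseudogene.

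The theta class gene Gstt1, whose product acts on small halogenated compounds, had 133, 143 and 119 CPM in Ctr, 183, 164, 148 and 187 CPM in Lpr and 201, 184, 252 and 205 CPM in DNase. All MRL/lpr kidneys were above Ctr, and Lpr and DNase overlapped narrowly. It was 1.49-fold higher in DNase than in Ctr (log2 fold change 0.58, SE 0.12, adjusted p = 0.00867 from edgeR, within a range of 0.000281 to 0.0850 over the alternatives) and not called in Lpr (log2 fold change 0.33, SE 0.15, adjusted p = 0.270). Gstt2 had 85.7 ± 17.5 FPKM (SD, n = 3) in Ctr, 99.1 ± 21.0 in Lpr and 121 ± 11.6 in DNase (SD, n = 4 in each) and was not called. Among the microsomal enzymes, Mgst1 had 119, 99.7 and 120 CPM in Ctr, 136, 185, 228 and 185 CPM in Lpr and 165, 156, 185 and 173 CPM in DNase. No MRL/lpr kidney reached down to Ctr. Mgst1 was higher in DNase (log2 fold change 0.50, SE 0.089, adjusted p = 0.00358 from edgeR), though not with all groups in one fit (adjusted p = 0.107, the highest over the alternatives). In Lpr its log2 fold change was 0.67 (SE 0.21, adjusted p = 0.0901 from edgeR) and without Lpr replicate 3 it was 0.51 (adjusted p = 0.0313), within a range of 0.0223 to 0.291, and it passed with DESeq2 (0.0434) and with all groups in one fit (0.0223). Mgst3 had 140 ± 7.30 FPKM (SD, n = 3) in Ctr, 132 ± 45.5 in Lpr and 127 ± 14.7 in DNase (SD, n = 4 in each). It was called lower in Lpr only without Lpr replicate 3 (log2 fold change -0.42, adjusted p = 0.0213 from edgeR, within a range of 0.0213 to 0.999), the value with all kidneys being -0.10 (SE 0.27, adjusted p = 0.872). Gstk1, which is found in mitochondria and peroxisomes, and Gsto1, which reduces dehydroascorbate, had 74.9 ± 12.3 and 83.8 ± 5.46 FPKM (SD, n = 3) in Ctr and were not called in any comparison. Gsto2, next to Gsto1 in rank within its class, had 0.971 ± 0.137 FPKM (SD, n = 3) in Ctr and was not called either.

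**Figure D4:**
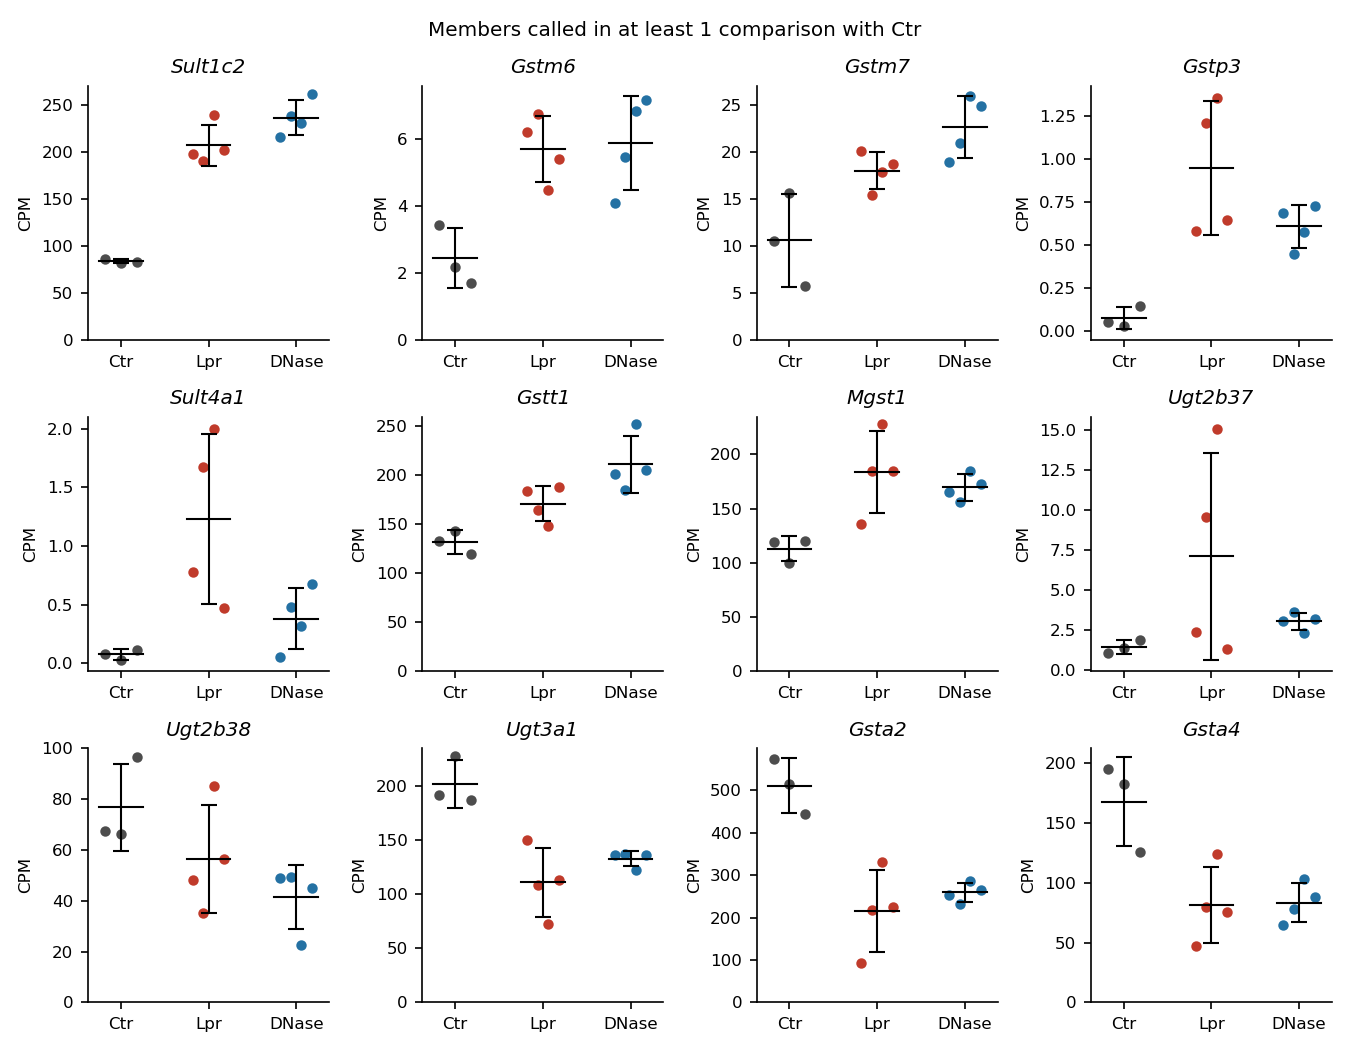
CPM of the 12 members called in at least 1 comparison with Ctr, 1 point per kidney, with the mean and SD of the group as bars. The axes differ between genes and start at or just below 0. Sult1c2 sits at 82.1 to 86.7 CPM in Ctr and at 190 CPM or more in every MRL/lpr kidney, while Gsta2 sits at 444 CPM or more in Ctr and at 330 CPM or less in every MRL/lpr kidney.

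Ugt3a1, at chr15:9276888-9315032 (plus strand, mm10), whose human counterpart transfers N-acetylglucosamine, was the 1 glycosyltransferase that was lower in both comparisons with Ctr. It had 191, 227 and 187 CPM in Ctr, 150, 108, 72.5 and 113 CPM in Lpr and 136, 137, 122 and 136 CPM in DNase. All MRL/lpr kidneys were below Ctr. The log2 fold change was -0.91 in Lpr (SE 0.23, adjusted p = 0.0383 from edgeR) and -0.71 in DNase (SE 0.10, adjusted p = 0.000831). The call in Lpr was lost with limma on FPKM (adjusted p = 0.0558 and 0.0564), without Ctr replicate 1, 2 or 3 (0.114, 0.161 and 0.0949) and without Lpr replicate 2 or 4 (0.106 and 0.0877), within a range of 0.00587 to 0.161, and in DNase the adjusted p stayed at 0.0298 or below. The neighbouring Ugt3a2, which is much more abundant, had 475 ± 66.6 FPKM (SD, n = 3) in Ctr, 372 ± 88.3 in Lpr and 430 ± 33.8 in DNase (SD, n = 4 in each) and was not called. The summed CPM of 12 proximal tubule markers lay between 13533 and 14643 in Ctr, between 10743 and 13570 in 3 Lpr kidneys, at 7285 in Lpr replicate 3 and between 10541 and 14438 in DNase. Of these markers, 1 was higher and 0 were lower in Lpr, and 2 were higher and 2 lower in DNase, with median log2 fold changes of -0.42 and -0.28. Their part in the lower levels of Ugt3a1, Gsta2 and Gsta4 was not tested.

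In the Ugt2 family, Ugt2b37 and Ugt2b38, whose promoters are shown above, differed from Ctr in opposite directions. Ugt2b38 had 67.4, 66.4 and 96.5 CPM in Ctr, 48.2, 35.2, 85.4 and 56.5 CPM in Lpr and 48.8, 49.4, 22.8 and 45.0 CPM in DNase, where all kidneys lay below Ctr. Ugt2b37 had 1.02, 1.34 and 1.86 CPM in Ctr, 2.37, 9.58, 15.1 and 1.32 CPM in Lpr and 3.05, 3.62, 2.30 and 3.15 CPM in DNase. The DNase kidneys were all above Ctr, and the Lpr kidneys spread from the Ctr range to the highest value of all. In DNase the log2 fold change was -0.98 for Ugt2b38 (SE 0.25, adjusted p = 0.0198 from edgeR). For Ugt2b37 it was 1.01 (SE 0.27, adjusted p = 0.0254 from edgeR). Both calls were lost with all groups in one fit (adjusted p = 0.0833 and 0.495). That of Ugt2b38 was also lost without Ctr replicate 3 (0.0733), within a range of 0.000345 to 0.0964 over the alternatives. That of Ugt2b37 was also lost without Ctr replicate 1 or 2 (0.0916 and 0.0584) and without DNase replicate 2 or 4 (0.0712 and 0.0667), within a range of 0.00350 to 0.495. In Lpr neither was called. The log2 fold change of Ugt2b37 was 2.33 (SE 0.83, adjusted p = 0.134 from edgeR, within a range of 0.0109 to 0.377) and without Lpr replicate 3 1.57 (adjusted p = 0.175), and it passed with DESeq2 (0.0109), with all groups in one fit (0.0471) and without Lpr replicate 4 (0.0447). That of Ugt2b38 was -0.46 (SE 0.31, adjusted p = 0.469 from edgeR) and without Lpr replicate 3 -0.79 (adjusted p = 0.0376, within a range of 0.0376 to 0.804). Of the windows of Ugt2b38, 24.2% occur in Ugt2b5 or Ugt2b37, and of those of Ugt2b37 1.06% occur in Ugt2b38 or Ugt2b5. Ugt2b34, the most abundant of the family, had 30.9 ± 3.56 FPKM (SD, n = 3) in Ctr, 33.8 ± 12.2 in Lpr and 35.8 ± 4.86 in DNase (SD, n = 4 in each) and was not called.

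The 7 Ugt1a members were read from one locus on chromosome 1, where Ugt1a10 starts at 88055388 and Ugt1a1 ends at 88218997. Between 50.3% and 60.6% of the exonic bases of each gene belong to other genes as well. Ugt1a2 held 78.0% of the Ugt1 sum and Ugt1a7c 18.2%. Ugt1a2 had 601, 571 and 551 CPM in Ctr, 398, 392, 99.3 and 469 CPM in Lpr and 537, 595, 403 and 577 CPM in DNase. All Lpr kidneys were below Ctr, and DNase overlapped both. The log2 fold change in Lpr was -0.82 (SE 0.41, adjusted p = 0.305 from edgeR), and without Lpr replicate 3 it was -0.52 (adjusted p = 0.0126, within a range of 0.0126 to 0.552). In Lpr replicate 3 each of the 6 tested members lay at 8.68% to 27.4% of the mean of the other 3 Lpr kidneys, and Ugt1a1, the bilirubin-conjugating enzyme, had 0.860 CPM there against 5.46 to 9.05 CPM. Ugt1a9, which was not tested, had 1 count there and 0, 3 and 4 counts in Lpr replicates 1, 2 and 4. Some other glycosyltransferases were low in this kidney too: Ugt2b34, at 3048 bases, lay at 41.5% of the other Lpr kidneys, Ugt3a1 at 58.5% and Ugt3a2 at 64.5%. The rest were not: Ugt2b37 lay at 341%, Ugt2a3 at 281%, Ugt2b5 at 216%, Ugt2b38 at 183% and Ugt8a, at 7704 bases, at 94.8%. The part of gene length in these values was not tested. The deposited lengths of Ugt1a members, 2293 to 3302 bases, include the shared exons. Ugt8a, which makes galactosylceramide, had 1.89 ± 0.855 FPKM (SD, n = 3) in Ctr and was not called.

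**Figure D5:**
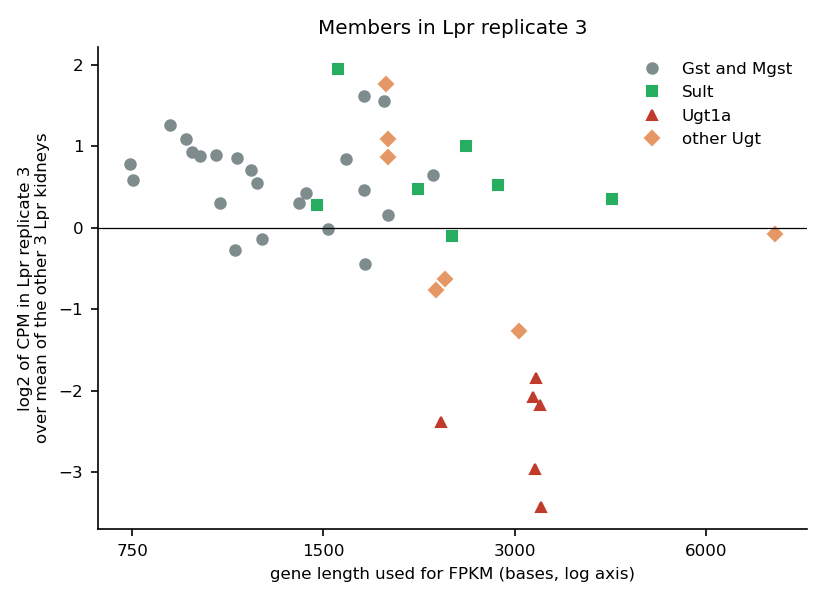
Log2 of the CPM of Lpr replicate 3 over the mean of the other 3 Lpr kidneys for the 43 tested members, against the gene length behind the FPKM (log axis), with a symbol for each enzyme group. The 6 tested Ugt1a genes lie between -3.43 and -1.85, below every other member, and 19 of the 23 Gst and Mgst genes lie above 0.

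Between DNase and Lpr, the members nearest to a difference in each direction were Gstt1, Gstm7 and Ugt1a2, with positive log2 fold changes, and Sult4a1, Sult1a1 and Ugt2b37, with negative ones, and 0 of them were called. The log2 fold change was 0.26 for Gstt1 (SE 0.14), 0.28 for Gstm7 (SE 0.16) and 0.61 for Ugt1a2 (SE 0.37), each with an adjusted p of 0.854 from edgeR. It was -0.40 for Sult1a1 (SE 0.19) and -1.32 for Ugt2b37 (SE 0.67), also with an adjusted p of 0.854 from edgeR. Without Lpr replicate 3 the log2 fold change was -0.56 for Ugt2b37 (adjusted p = 0.753) and 0.31 for Ugt1a2 (adjusted p = 0.508 from edgeR), within ranges of 0.414 to 0.997 and 0.508 to 0.997 over the alternatives. The values of all 6 overlapped between the groups. Sult1a1, which sulfates small phenols, had 19.4, 15.4, 24.0 and 21.6 CPM in Lpr and 17.1, 17.2, 16.8 and 12.1 CPM in DNase. Over the alternatives the lowest adjusted p of these 6 was 0.345, for Sult4a1. A p that misses the threshold does not show that a level was equal in the 2 groups.

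Of 110 other genes of these pathways, taken from lists of glutathione metabolism, sugar nucleotide and sulfate supply, antioxidant response, nuclear receptors, export and other conjugating enzymes, 107 were tested between Lpr and Ctr. Of these, 9 were higher and 4 lower in Lpr, where 7.27% of all genes were higher and 2.92% lower. Glutathione synthesis and recycling had 5 higher and 0 lower of 26, UDP-glucuronate supply 1 and 1 of 8, sulfate supply 0 and 1 of 14, and targets of the antioxidant response 1 and 0 of 22. Nuclear receptors and other xenobiotic regulators had 1 and 1 of 14, conjugate exporters 0 and 0 of 10, and other conjugating enzymes 2 and 1 of 17. Some genes stand in more than 1 list. The higher genes with the smallest p were Alox5ap, which presents arachidonic acid for leukotriene synthesis, Glrx, a glutathione-dependent reductase, Dpep2, which cleaves leukotriene D4, and Slc7a11, the cystine importer. Alox5ap had 4.16 ± 0.584 CPM (SD, n = 3) in Ctr, 22.4 ± 7.22 in Lpr and 15.0 ± 3.02 in DNase (SD, n = 4 in each). Glrx had 30.2 ± 1.67 CPM in Ctr, 63.1 ± 3.46 in Lpr and 58.0 ± 6.96 in DNase, and Slc7a11 had 0.134 ± 0.0381, 1.13 ± 0.639 and 1.67 ± 0.618 CPM. The adjusted p in Lpr from edgeR was 0.00199 for Alox5ap, 0.00357 for Glrx, 0.00521 for Dpep2 and 0.0133 for Slc7a11. Dpep2 and Slc7a11 had too few counts in Ctr to pass the filter on low counts there. They were thus tested only because of their level in the MRL/lpr kidneys, and Slc7a11 is the 1 higher target of the antioxidant response.

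The 4 lower genes in Lpr were Slc35a3, which carries UDP-N-acetylglucosamine into the Golgi, Bpnt1, which removes the product that sulfotransferases leave of PAPS, the methyltransferase Inmt and the nuclear receptor Nr1i3. Bpnt1 had 281 to 306 CPM in Ctr, 150 to 182 in Lpr and 179 to 188 in DNase. Its log2 fold change was -0.86 in Lpr (SE 0.15, adjusted p = 0.00676 from edgeR) and -0.75 in DNase (SE 0.071, adjusted p = 8.52e-05). Slc35a3 had 106 to 138 CPM in Ctr, 49.3 to 73.9 in Lpr and 62.4 to 70.9 in DNase, with log2 fold changes of -0.99 (SE 0.17, adjusted p = 0.00654 from edgeR) and -0.92 (SE 0.10, adjusted p = 0.000183). Inmt had 82.9 to 234 CPM in Ctr and at most 38.4 CPM in any MRL/lpr kidney, and Nr1i3 had at most 0.735 CPM anywhere. In DNase against Ctr, 17 of 107 of these genes were higher and 14 lower, where 13.1% of all genes were higher and 8.61% lower. Glo1, which detoxifies methylglyoxal with glutathione, and the oestrogen receptor gene Esr1 were among the 4 higher genes with the smallest p, and Ggct, of glutathione breakdown, led the lower ones. Ggct had 25.7 ± 4.95 CPM (SD, n = 3) in Ctr and 9.61 ± 0.869 CPM (SD, n = 4) in DNase (log2 fold change -1.51, SE 0.14, adjusted p = 7.19e-05 from edgeR). Between DNase and Lpr, 0 of 105 were called by edgeR.

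Markers of macrophages and T cells moved with the comparison against Ctr, and those of other leukocytes did so in part. The summed CPM of 6 macrophage markers was 115 to 150 in Ctr, 503 to 1014 in Lpr and 406 to 752 in DNase, and that of 6 T cell markers was 2.78 to 5.04, 34.4 to 105 and 38.1 to 71.4. All 6 macrophage and all 6 T cell markers were higher in both comparisons with Ctr. Of 4 B cell markers, 1 was higher in Lpr and 4 in DNase. Of 6 neutrophil markers, 4 were tested and 3 were higher in both comparisons. The part of these leukocyte markers in the higher levels of Sult1c2, Gstm6, Gstp3, Sult4a1, Mgst1, Gstt1 and Ugt2b37, and of Alox5ap and Dpep2, was not tested. Adipocyte markers summed to between 27.5 and 783 CPM in Ctr, to 902 CPM in Lpr replicate 3 and to between 6.49 and 526 CPM in the other Lpr kidneys, and to between 2.44 and 187 CPM in DNase. Of 6 hepatocyte markers, which come from a cell type that holds many of these enzymes, 5 were tested in each comparison with Ctr. Alb, Fgb and Ttr were lower in both, and Apob was higher in DNase. Ttr had 36.7 to 44.1 CPM in Ctr, 0.362 to 1.86 CPM in Lpr and 0.364 to 0.763 CPM in DNase, and Alb had 10.0 to 14.9, 1.86 to 6.69 and 6.39 to 7.45 CPM. The 6 markers summed to 308 to 435 CPM in Ctr, 209 to 716 in Lpr and 424 to 935 in DNase, of which Apob made up 254 to 378, 199 to 711 and 417 to 927 CPM. The part of these markers in the lower levels of Gsta2 and Ugt2b38 was not tested.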

How the data were processed

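Kidney RNA of 3 Ctr, 4 Lpr and 4 DNase mice was analysed, with 1 library per sample. Raw gene counts were deposited by the authors, who name HTSeq for matching paired-end reads to reference genes. The FPKM values deposited by the authors came from the same counts, library totals and 1 length per gene. The submitters' processing notes name mm10 and fastp. No other aligner is named, and the annotation and strand use are not given in the sources used here. All columns were used (0 unused).

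Each pair of groups was tested with edgeR 4.0.16 (quasi-likelihood test, filterByExpr, TMM) in R 4.3.3, with Benjamini-Hochberg adjustment over all genes tested and a threshold of 0.05. FPKM values served for levels and for limma 3.58.1. Libraries held 33469858 to 38460873 counts. Kidneys of a group differed by more than sampling noise (chi-square over degrees of freedom between 17.5 and 393 for each pair). The procedure was run on counts simulated from the model that edgeR assumes. Changes were placed only in genes with higher counts and length had no effect, so rare genes and Lpr replicate 3 are not covered. The edgeR p-values set the difference between 2 groups against the spread of kidneys within groups, which is moderated over all genes. Each comparison has 7 or 8 kidneys.

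Positions and shared windows of 100 bases came from GENCODE M21 (GRCm38) and promoters from RefSeq. Figures used python 3.11.15 and matplotlib 3.10.9, and alignments biopython 1.88.

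The members and gene lists were chosen with earlier results of these data known. Named were the 2 members of each family with the highest mean FPKM, every called member, the 3 nearest in each direction between DNase and Lpr, those at the limit of 50 counts and, of the other pathway genes called, the 4 with the smallest p in each direction. Members called only without Lpr replicate 3, and others named for their values, were added after these were seen. Alternatives were DESeq2 1.42.0, its size factors, no low-count filter, 1 fit of all groups, a gene length offset, a robust fit, the replicate number as a block, limma on log2 FPKM values with a pseudocount of 1 or of 0.1 where the mean reached 0.5 FPKM, an added limit of 2 on the absolute log2 fold change, and leaving out each library.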

Additional observations from a re-analysis of the deposited data

Results flagged for a closer look

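A kidney was flagged when the gap to its nearest neighbour made up most of the range of its group. A small offset is thus flagged where the other kidneys agree closely. Flags were raised in 8 of 90 groups of 4 kidneys that were checked (45 members in Lpr and in DNase), and groups of 3 were not checked. The limit is meant to flag about 1 in 20 groups of independent, normally distributed values. Genes of 1 kidney are not independent, so that rate is no measure of chance for these 90 groups. In Lpr replicate 3, Gstm5 was at 219 CPM against 102 to 104 CPM in the other Lpr kidneys, and Ugt1a7c at 26.9 CPM against 113 to 127 CPM. In DNase replicate 3, 3 glycosyltransferases were lowest: Ugt2b38 at 22.8 CPM against 45.0 to 49.4 CPM, Ugt3a1 at 122 CPM against 136 to 137 CPM and Ugt3a2 at 883 CPM against 1030 to 1049 CPM. In DNase replicate 4, Sult1a1 was at 12.1 CPM against 16.8 to 17.2 CPM and Ugt1a6a at 5.56 CPM against 6.88 to 7.04 CPM. In DNase replicate 1, Gstp2 was at 2.01 CPM against 0.390 to 0.497 CPM.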

How the results depend on the processing

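Of the log2 fold changes of named members recomputed under the alternatives, 470 kept their direction and their side of the threshold, 21 newly passed it, 42 no longer passed and 4 changed sign. The higher members in Lpr against Ctr numbered 4, and 6 with DESeq2 and with all groups in one fit, 2 with the added limit on the fold, 2 with limma on log2(FPKM + 1) and 2 on log2(FPKM + 0.1), where 37 members, without Gstp3 and Sult4a1, were tested, and 2 to 5 with 1 kidney left out. The lower members in Lpr numbered 1, but 3 with all groups in one fit, 3 with DESeq2, 3 with the length offset, 2 with no low-count filter, 0 with both limma fits and with the limit on the fold, and 0 to 8 with 1 kidney left out. Between DNase and Lpr the count was 0 under all settings run. In DNase against Ctr, 7 members were higher, with 1 under the limit on the fold and 4 to 8 with 1 kidney left out. There 4 were lower, with 2 in one fit of all groups, 0 under the limit on the fold and 3 to 4 with 1 kidney left out. Over all genes, with 1 kidney left out, 641 to 1748 were higher and 211 to 1076 lower in Lpr against Ctr. In DNase against Ctr, 1696 to 2066 of all genes were then higher and 994 to 1379 lower. Gstm5 had a log2 fold change in Lpr of 0.12 with all kidneys and of -0.19 with the length offset, and with 1 kidney left out it lay between -0.29 and 0.25. That of Mgst3 (-0.10 with all kidneys) lay between -0.42 and 0.00 with 1 kidney left out, being 0.00 without Lpr replicate 1 and 0.00 without Lpr replicate 2. Where no value above shows otherwise, the cause was not tested. Replicate numbers did not pair kidneys (correlations of deviations between -0.277 and 0.159). With the replicate number as a block, 4 members were higher and 0 lower in Lpr against Ctr, 0 were called between DNase and Lpr, and 3 were higher and 3 lower in DNase against Ctr. Under the block Gstm6 (adjusted p = 0.0895) and Ugt3a1 (0.0889) were not called in Lpr and Ugt2b37 (0.0188) was, and Gstm6 (0.139), Gstm7 (0.127), Gstt1 (0.0850), Ugt2b37 (0.147) and Ugt2b38 (0.0964) were not called in DNase, all from edgeR.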
